A study of Drosophila melanogaster with 8 samples.

Results

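The euchromatin border next to the centromeres was taken from chromosome position alone, on 4 arms of the Drosophila melanogaster genome in build dm3. It comprised X from 21.4 Mb, 2L from 22 Mb and 3L from 23.5 Mb to the end of each arm, and 3R below 1 Mb. Non-overlapping windows of 1 kb were the members, and 3215 of the 126378 windows of the profiles fell in the border: 708 on X, 722 on 2L, 839 on 3L and 946 on 3R. The series profiled H3K27me3 by ChIP-seq in whole adult testes of 3-day-old can or comr homozygotes reared at 23 °C. The allele of either gene is not named in the labels. For each genotype 2 H3K27me3 libraries and 2 input libraries, made with 400 testes as starting material, had been combined by the authors into 1 profile, so there are 8 samples in 4 groups but 2 profiles. No wild type is among these samples. With 1 profile for each genotype there was no replicate check, and no test or p-value is given. Errors are standard errors over windows or bins, which describe scatter along the chromosome and not the spread between animals.

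H3K27me3 is deposited by the E(z) methyltransferase of Polycomb repressive complex 2 and marks repressed developmental genes in broad euchromatic domains. Pericentric heterochromatin is packaged differently, with H3K9 methylation and the HP1a protein, and is rich in transposons and satellite repeats. The transition between these 2 kinds of chromatin lies in the centromere-side part of each arm and can shift between cell types. A few genes in or near it, such as light on 2L, need a heterochromatic setting for normal expression. can encodes a testis-specific TBP-associated factor and comr a subunit of the testis meiotic arrest complex, and germ cells lacking either stop as primary spermatocytes. Whole mutant testes also hold earlier germ cells and somatic cells, so each score is an average over cell types.

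The score is H3K27me3 over input, on a scale with a median of 0 whose base is not given, so differences of scores are reported and never folds. The window shares below are shares of positions, and the read depth behind a score is unknown. Both profiles had the same set of values over the genome through the normalization, which fixes their overall mean and leaves no view of a change in total H3K27me3. The border was thinly covered in places. Windows were present for 69.4% of the kb spanned on X, 84.2% on 2L, 81.0% on 3L and 94.6% on 3R, against 94.5 to 97.3% over the rest of these arms. On X no window fell in the 50 kb from 21700000, and 3 of the 20 other bins held fewer than 20. The part of this coverage in the scores was not tested.

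The autosomal border scored below the rest of its arms in both mutants. The X border, with means above 0, lay below the rest of X by more than 2 standard errors in can alone. The mean of the 2L border was -0.17 ± 0.04 in can and -0.19 ± 0.05 in comr (with standard errors over 18 bins of 50 kb), compared with 0.00 in both elsewhere on the arm. The 3L border had -0.11 ± 0.02 in can and -0.10 ± 0.03 in comr (21 bins), compared with -0.01 and -0.02. The 3R border had -0.06 ± 0.04 in can and -0.13 ± 0.05 in comr (20 bins), compared with 0.03 and 0.04. The deficit was thus larger than 2 standard errors over bins on each of these arms in both profiles, at -0.17 ± 0.04 and -0.19 ± 0.05 on 2L, -0.10 ± 0.02 and -0.09 ± 0.03 on 3L, and -0.09 ± 0.04 and -0.17 ± 0.06 on 3R. On X the border averaged 0.06 ± 0.03 in can and 0.06 ± 0.05 in comr (20 bins), compared with 0.13 and 0.07 elsewhere. That is a deficit of -0.07 ± 0.03 in can, also larger than 2 standard errors. In comr the deficit was -0.01 ± 0.06, less than its error.

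Low stretches of this length were not confined to the border. Of the 22 other 1 Mb regions of 2L with at least 500 windows, 0 averaged lower than the border in can and 1 did in comr. On 3R, 3 of 27 such regions were lower in can and 1 in comr. On 3L, 4 of 23 were lower in can and 6 in comr, and on X 7 of 21 in can and 11 in comr. The border was therefore near the bottom of its arm on 2L and 3R, in the lower part on 3L, and in the middle of the range on X in comr.

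**Figure D1:**
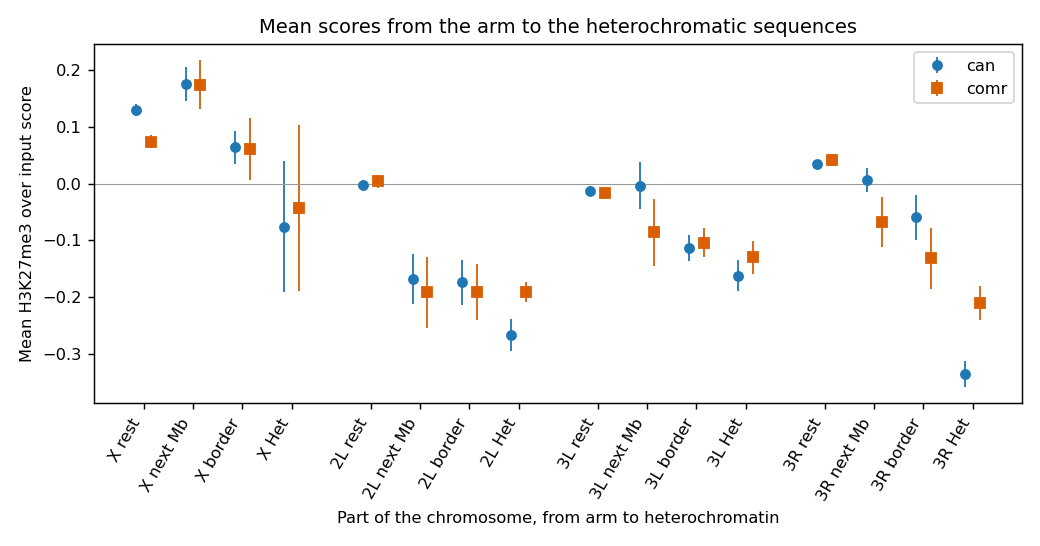
Mean H3K27me3 over input score (vertical axis) in can (circles) and comr (squares) for 4 parts of each chromosome: the rest of the arm, the 1 Mb beside the border, the border, and the mapped heterochromatic sequence (Het). Bars are standard errors over 50 kb bins; the 2L, 3L and 3R borders lie below 0 in both mutants and the X border at 0.06 in both.

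Of the 4 arms, 3R had a downward slope toward the centromere larger than 2 standard errors, and it did so in both mutants. There the bin means fell by 0.04 ± 0.01 per 100 kb in can and by 0.05 ± 0.01 in comr (least squares slope and its standard error), with r of -0.66 and -0.65 over 20 bins. On the other arms no slope over 50 kb bins exceeded 2 standard errors. On X they were 0.00 ± 0.01 per 100 kb in can and -0.02 ± 0.02 in comr. On 2L they were 0.00 ± 0.02 in can and 0.00 ± 0.02 in comr. On 3L they were 0.01 ± 0.01 in both. Bins of 1 arm share their libraries, and neighbouring bins share chromatin, so these correlations and slopes are descriptions.

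**Figure D2:**
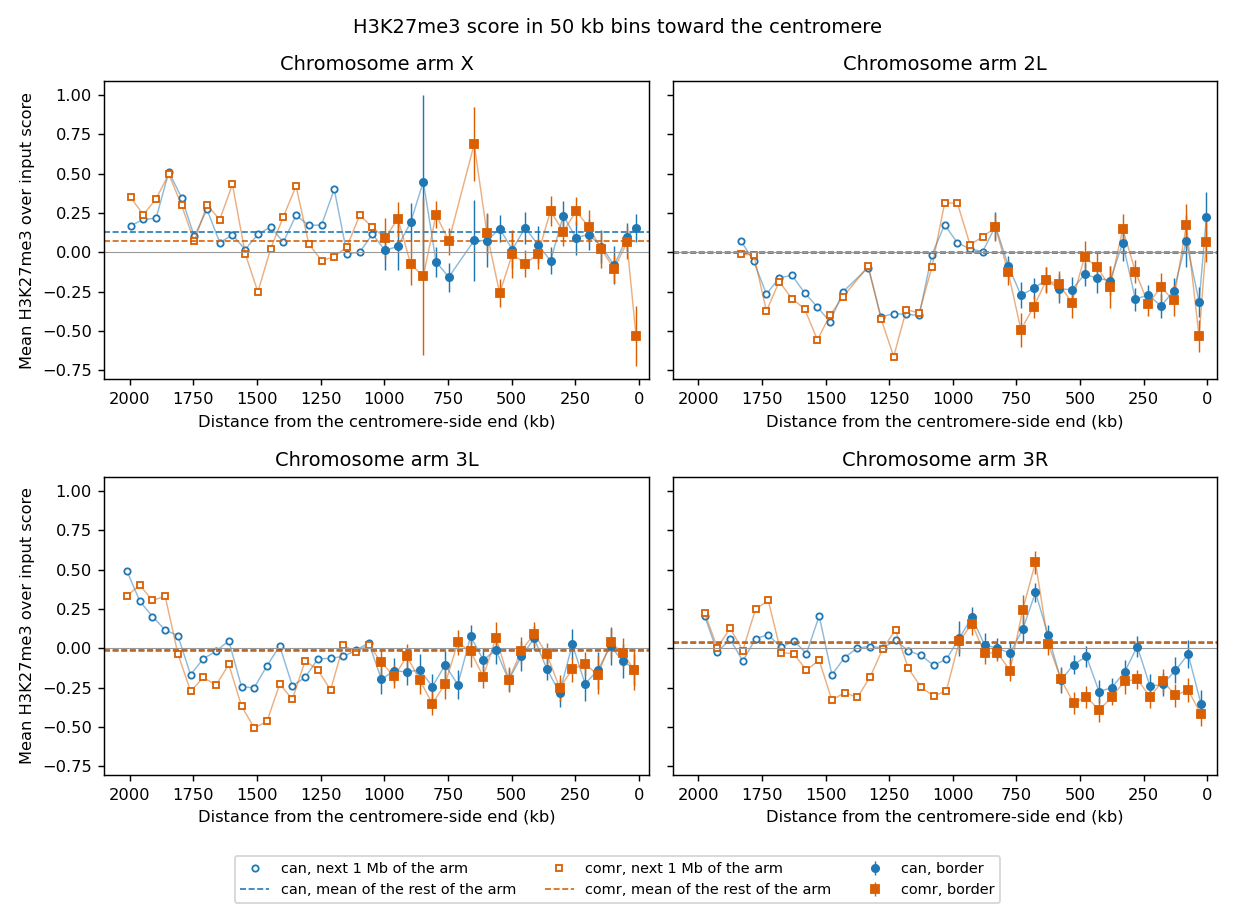
Mean score of 50 kb bins (vertical axis) against distance from the centromere-side end of the mapped arm (horizontal axis, kb, centromere to the right) in can and comr, with the border as filled symbols with standard errors over windows and the next 1 Mb of the arm as open symbols. Dashed lines are means over the rest of the arm; 3R drops 600 kb from its end, 2L drops after a raised stretch, the 3L border is low over most of its length, and on X the mutants cross repeatedly.

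The fall on 3R was also described as 2 levels, a description that was not compared with the straight line. When the 20 bins were divided into 2 levels by least squares, with at least 3 bins on each side, both profiles divided at 600000. This split accounted for 59.3% of the variance of bin means in can and 65.5% in comr. Among the 12 bins on the centromere side, 11 were below 0 in can and all 12 in comr, with ranges of -0.35 to 0.01 and -0.42 to -0.20. On the arm side the 8 bins spanned -0.03 to 0.36 in can and -0.14 to 0.55 in comr. The contrast between the sides, of -0.27 in can and -0.39 in comr, follows in part from choosing the split. In the next 1 Mb of 3R, 9 of 20 bins were below 0 in can and 14 in comr, down to -0.17 and -0.33. Neither the slope nor the split was recomputed with another limit, so both hold for this border alone. The first bin, from 0 to 49999, was the lowest by the mean of both profiles, at -0.35 ± 0.09 in can and -0.42 ± 0.07 in comr over 46 windows. Of 538 bins over the rest of 3R, 4 were lower than this in can and 7 in comr.

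Farther out, beyond a bin with 0.08 ± 0.07 in can and 0.03 ± 0.07 in comr, lay the highest H3K27me3 of the autosomal border. The 3R bin from 650000 to 699999 averaged 0.36 ± 0.06 in can and 0.55 ± 0.07 in comr, and the next bin outward, from 700000 to 749999, averaged 0.12 ± 0.08 and 0.25 ± 0.09. In bins of 10 kb the score reached 0.60 ± 0.10 in can and 0.93 ± 0.13 in comr from 670000 to 679999. It was 0.63 ± 0.12 and 0.67 ± 0.11 from 700000 to 709999. Toward the arm it dropped to -0.26 ± 0.12 in can and -0.09 ± 0.08 in comr from 730000 to 739999. Its start was less sharp in can, where the 10 kb bin from 640000 averaged 0.25 ± 0.10 and the one from 650000 averaged 0.12 ± 0.18. The 80 kb from 650000 to 729999, with limits set after the values were seen, averaged 0.39 ± 0.05 in can and 0.55 ± 0.06 in comr (74 windows). Windows in the top 10% of the 6 main sequences (X, 2L, 2R, 3L, 3R and 4) made up 16 of the 94 windows of these 2 bins in can (17.0%) and 29 in comr (30.9%), where the background was 10.1% and 10.3%. Without these 2 bins the remaining 6 on the arm side averaged 0.06 ± 0.03 and 0.01 ± 0.03 (standard errors over windows). The split stayed at 600000 in both profiles.

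On 2L the border opened with 1 bin above the arm's mean and was low after it. The bin from 22000000 to 22049999 averaged 0.17 ± 0.09 in can and 0.16 ± 0.08 in comr and was the highest of the 2L border by the mean of both profiles, among bins with at least 20 windows. Over all later bins the mean was -0.20 ± 0.02 in can and -0.22 ± 0.02 in comr (standard errors over 672 windows). Errors over windows are the smaller kind: for the whole 2L border in can they were 0.02 over windows and 0.04 over bins. The low level was broken by single bins above 0 in both mutants. These were the bin from 22500000 with 0.06 ± 0.11 and 0.15 ± 0.10, the bin from 22750000 with 0.07 ± 0.17 and 0.17 ± 0.13, and the last one, from 22850000, with 0.22 ± 0.16 and 0.07 ± 0.13 over 5 windows. Between the last 2 lay the lowest bin of the 2L border, from 22800000 to 22849999, with -0.31 ± 0.10 in can and -0.53 ± 0.10 in comr. A single split of 2L accounted for 14.8% of the variance in can and 3.8% in comr, at different positions, so no step toward the centromere was shared there.

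The low 2L border was separated from a second low stretch farther out. Outside the border, the 650 kb of 2L up to 21749999 averaged -0.31 ± 0.02 in can and -0.39 ± 0.03 in comr (standard errors over windows). All 12 of its bins with windows were below 0 in both. Between the 2 low stretches, the 250 kb up to 22049999 averaged 0.09 ± 0.03 in can and 0.19 ± 0.03 in comr (also over windows). The 1 Mb beside the border thus averaged -0.17 and -0.19, no higher than the border itself. On 3R the 1 Mb beside the border averaged 0.01 and -0.07, on 3L 0.00 and -0.09, and on X 0.17 in both. Border minus neighbouring Mb, with standard errors over bins, was -0.11 ± 0.04 in can and -0.11 ± 0.07 for comr on X, and -0.11 ± 0.05 and -0.02 ± 0.06 on 3L. It was -0.07 ± 0.04 and -0.06 ± 0.07 on 3R, and -0.01 ± 0.06 and 0.00 ± 0.08 on 2L. The border was therefore lower than its neighbouring Mb by more than 2 standard errors in can on X and 3L, and in comr on none of the 4 arms.

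The 3L border was low over most of its length in both mutants. Of its 21 bins, 17 were below 0 in can and 17 in comr, and 15 in both. The lowest, from 23700000 to 23749999, averaged -0.24 ± 0.08 in can and -0.35 ± 0.07 in comr. The highest, from 24100000 to 24149999, averaged 0.06 ± 0.08 and 0.09 ± 0.08, within 2 standard errors of 0. The bin at the centromere-side end, from 24500000, averaged -0.13 ± 0.10 in can and -0.14 ± 0.13 in comr. The best 2-level split of the 3L border put the lower level on the arm side in both profiles, at 23.85 Mb in can and 23.8 Mb in comr. It accounted for 18.0% of the variance in can and 20.5% in comr, and its levels follow in part from choosing the split. The slopes of 3L, at 0.01 ± 0.01 per 100 kb in both, were within 2 standard errors of 0.

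On X the bin means of the mutants did not move together. Of the 20 bins, 4 were below 0 in can, 8 in comr and 1 in both. That 1 bin, from 22300000 to 22349999, averaged -0.08 ± 0.12 in can and -0.10 ± 0.09 in comr. The highest by the mean of both, from 22100000 to 22149999, averaged 0.23 ± 0.09 and 0.13 ± 0.09. The last bin, from 22400000, held 15 windows and averaged 0.16 ± 0.09 in can and -0.53 ± 0.19 in comr. Over bins, r between the mutants was -0.31 (Spearman's rho = -0.35, n = 20 bins) in the X border, and -0.24 over the 17 bins with at least 20 windows, against 0.70 over 428 bins of the rest of X. The same correlation was 0.84 over 18 bins of the 2L border, 0.57 over 21 bins of 3L and 0.90 over 20 bins of 3R. It was 0.84, 0.81 and 0.81 over the rest of those arms. The bins of a profile share its libraries, and those of the X border held a median of 40 windows, against 43 on 2L, 40 on 3L and 49 on 3R. Scatter between adjacent windows was wider in the X border, where the SD was 0.67 for can and 0.64 for comr, than in the 3 autosomal borders, where it was 0.47 to 0.51 and 0.44 to 0.51. Over the rest of X that SD was 0.65 for can and 0.64 for comr, close to the border. Bin means in the X border varied with an SD of 0.13 for can and 0.24 for comr, against 0.21 and 0.25 over the rest of X. In the 1 Mb of X beside the border, r between the mutants was 0.36 over 20 bins, also below the rest of X. The part of scatter and bin spread in the low agreement on X was not tested.

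The low mean of the autosomal border came with more windows in the low tail as well as fewer in the high tail. On 2L, 17.2% of windows in can (95% Wilson interval 14.6 to 20.1) and 18.6% in comr (15.9 to 21.6) were in the bottom 10%, compared with 10% and 9.35% elsewhere on the arm. On 3L the shares were 14.8% (12.5 to 17.3) and 14.5% (12.3 to 17.1), compared with 10.3% and 10.1%. On 3R they were 12.7% (10.7 to 14.96) and 14.3% (12.2 to 16.6), against 8.3% and 7.9%. Each border interval lay above the share of its arm. In the 1 Mb beside the border the bottom shares were 17.5% and 18.4% on 2L, 11.7% and 16.3% on 3L, and 7.1% and 8.8% on 3R. The larger low tail was thus not particular to the border on 2L in either mutant, or on 3L in comr. The background over the 6 main sequences was 10.3% in can and 10.2% in comr. These intervals cover counting error alone and take windows as independent, which neighbours are not.

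At the high end, windows in the top 10% made up 6.0% of the 2507 autosomal border windows in can and 6.3% in comr. The shares by arm were 5.5% and 6.9% on 2L, 5.6% and 5.8% on 3L, and 6.8% and 6.2% on 3R. Elsewhere on these arms they were 8.2% and 9.0% on 2L, 7.8% and 8.3% on 3L, and 8.7% and 9.9% on 3R. In the 1 Mb beside the border the top shares were 4.5% and 5.8% on 2L, 9.4% and 9.6% on 3L, and 6.7% and 5.4% on 3R. Few top windows were thus not particular to the border on 2L and 3R. In the X border 15.7% of windows in can and 14.8% in comr were in the top 10%, compared with 18.8% and 16.5% elsewhere on X. Windows of the bottom 10% made up 12.9% and 11.4% there, against 12.1% and 12.2%, and both differences were within the intervals of the border. The X border thus kept a higher share of top windows than the 10.1% and 10.3% of the 6 main sequences.

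**Figure D3:**
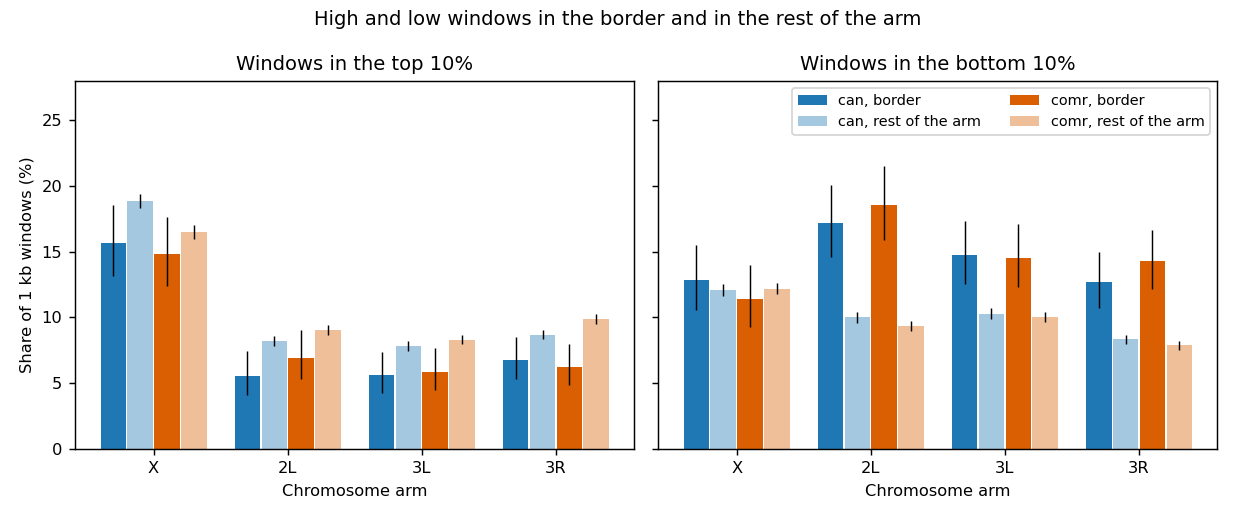
Share of 1 kb windows (vertical axis, %) in the top 10% (left) and the bottom 10% (right) of the 6 main sequences, for the border (dark bars) and the rest of the arm (light bars) of each chromosome arm in can and comr. Lines are 95% Wilson intervals over windows; on 2L, 3L and 3R the border has fewer top windows and more bottom windows than the arm, with 17.2% and 18.6% bottom windows on 2L.

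Few enriched domains lay in the autosomal border. Domains were stretches of top 10% windows of at least 5 kb, with gaps of up to 3 kb joined. Per 1000 windows the 2L border held 1.39 domains in can and 4.16 in comr, compared with 8.08 and 9.18 elsewhere on the arm. The 3L border held 3.58 and 2.38, against 7.53 and 8.15, and the 3R border 6.34 in both, against 7.98 and 10.2. On X the density was 25.4 in can and 18.4 in comr, against 23.9 and 19.6. These densities rest on 1 to 18 domains per segment and profile.

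Domains of at least 10 kb numbered 2 in the border in can, both on X, and 5 in comr. Per 1000 windows the 3R border of comr held 3.17 of them, compared with 3.28 elsewhere on the arm, and the 2L border of comr 1.39, compared with 2.76. The X border held 2.82 in can and 1.41 in comr, compared with 7.86 and 6.38. The longest on 3R, from 666050 to 680049 in comr, averaged 0.96 ± 0.10 in comr and 0.45 ± 0.12 in can. The second 3R domain of comr, from 701050 to 713049, averaged 0.78 ± 0.12 and 0.53 ± 0.13 in can. The third, from 926050 to 937049, averaged 0.58 ± 0.13 in comr and 0.24 ± 0.10 in can. Both of the first 2 lay in the raised stretch outside the 3R step, and can scored above 0 in all 3. On 2L the domain from 22510050 to 22521049, called in comr, averaged 0.58 ± 0.17 in comr and 0.35 ± 0.32 in can over 7 windows. On X, comr had 1, from 21446050 to 21462049, with 0.46 ± 0.17 in comr and 0.13 ± 0.15 in can. The 2 of can on X, from 22184050 to 22197049 and from 22321050 to 22331049, averaged 0.33 ± 0.21 and 0.20 ± 0.32 in can, and 0.36 ± 0.18 and -0.30 ± 0.18 in comr. A domain's score in the profile that called it is raised by that choice.

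Between the mutants, the border as a whole differed by -0.02 ± 0.02 in comr against can (standard error over 79 bins), and the difference exceeded 2 standard errors on 3R alone of the 4 arms. On 3R the score in comr was lower by 0.07, a difference of -0.07 ± 0.03 over 20 bins, with 16 of 20 bins lower in comr. On X the difference was 0.00 ± 0.07, on 2L -0.02 ± 0.03 and on 3L 0.01 ± 0.02, with 11 of 20, 11 of 18 and 9 of 21 bins lower in comr. Over all 2404 bins of the 6 main sequences 52.0% were lower in comr. In the 1 Mb beside the border the difference was -0.07 ± 0.03 on 3R, -0.08 ± 0.03 on 3L, -0.02 ± 0.03 on 2L and 0.00 ± 0.04 on X. The 3R difference was thus not particular to the border. Whether the 3R difference would recur in other animals cannot be read from 1 profile per genotype.

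The 3R deficit of comr was wider on the centromere side of the step. Over the 12 bins below 600000, can averaged -0.17 and comr -0.29, a difference of -0.12 ± 0.03, with 10 of 12 bins lower in comr. On the arm side of the step the difference was 0.00 ± 0.04 over 8 bins, although 6 of 8 bins were lower in comr. Without the 2 raised bins, can averaged 0.06 and comr 0.01 there. The widest gap was in the bin from 450000 to 499999, with -0.05 ± 0.07 in can and -0.31 ± 0.07 in comr. The opposite sign was widest at the raised bin from 650000, where comr stood 0.19 ± 0.08 above can. Bin means on 3R varied more in comr, with an SD of 0.18 for can and 0.24 for comr. The slope of comr minus can toward the centromere was -0.015 ± 0.008 per 100 kb, within 2 standard errors of 0. The division at 600000 was found from the same scores. The wider range of comr was not limited to the border, since elsewhere on 3R the SD over bins was 0.17 for can and 0.24 for comr.

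**Figure D4:**
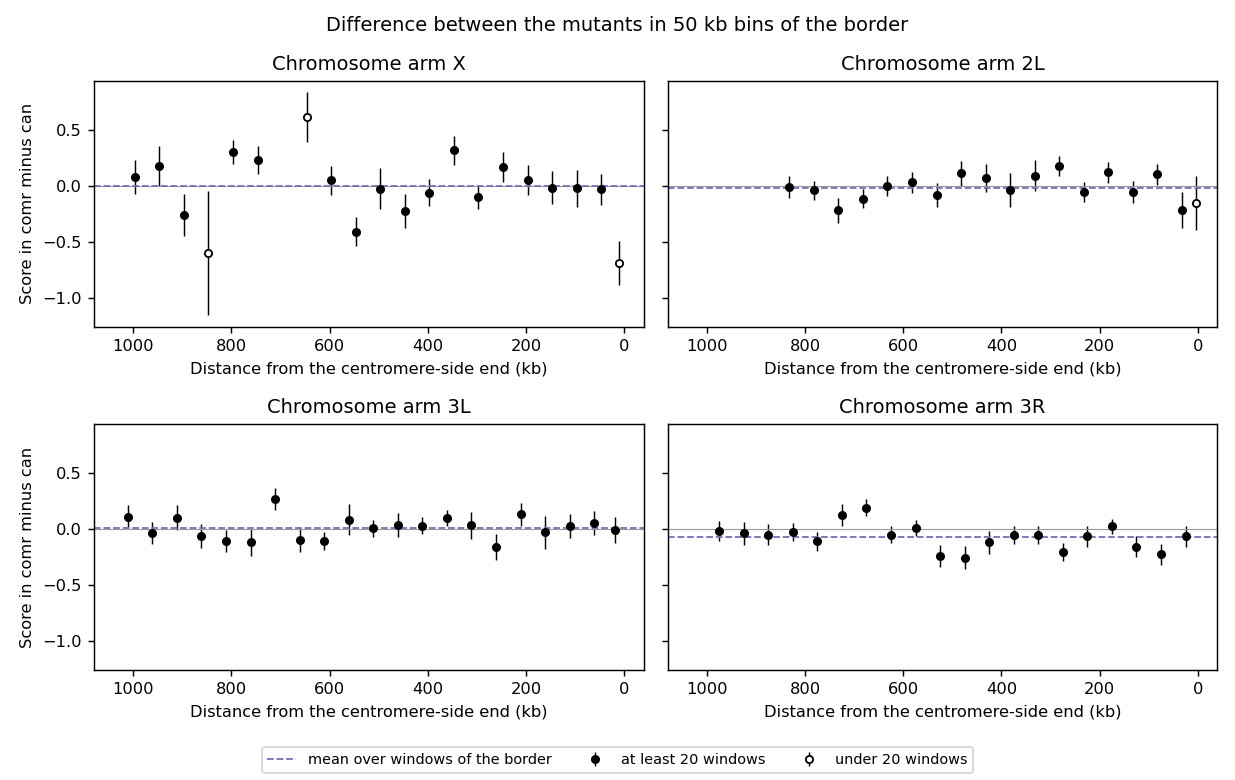
Score in comr minus can (vertical axis) for each 50 kb bin of the border against distance from the centromere-side end (horizontal axis, kb), with standard errors over windows and open symbols for bins with fewer than 20 windows. The dashed line is the mean difference of the arm; on 3R 16 of 20 bins lie below 0, and on X the bins scatter widely to both sides.

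Bins that differed by at least 0.1 were about as common in the border as elsewhere. Of the 79 border bins, 16 were higher in comr by at least 0.1 and 21 were lower, where the 6 main sequences had 22.4% and 26.2% of bins. On 3R 7 of 20 were lower and 2 higher, and on X 6 were lower and 6 higher. The widest gaps with at least 20 windows were on X. The bin from 21850000 to 21899999 averaged 0.15 ± 0.09 in can and -0.26 ± 0.09 in comr, and the bin ending at 22099999 averaged -0.05 ± 0.09 and 0.26 ± 0.10. On 2L comr was lowest against can in the bin ending at 22149999 (-0.27 ± 0.08 in can, -0.49 ± 0.11 in comr). It was highest against can in the bin from 22550000 (-0.30 ± 0.07 and -0.12 ± 0.07). On 3L the extremes were the bin from 24250000 (0.03 ± 0.10 and -0.13 ± 0.08) and the bin from 23800000 (-0.23 ± 0.09 and 0.04 ± 0.08).

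Below 0 in both mutants were 42 of the 79 border bins, with 1 on X, 14 of 18 on 2L, 15 of 21 on 3L and 12 of 20 on 3R, against 39.9% of bins over the 6 main sequences. In can alone 47 of 79 were below 0, against 48.5%, and in comr 54, against 51.5%. The excess was therefore on the autosomal arms, where 41 of 59 bins were low in both.

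Set beside the mapped heterochromatin of the same chromosomes, the border was intermediate on 3R in both mutants and on 2L in can. It was close to the heterochromatin on 3L in both mutants and on 2L in comr. 3RHet averaged -0.34 ± 0.02 in can and -0.21 ± 0.03 in comr (50 bins), and the 50 kb of the 3R border nearest the centromere had reached that level in can and was below it in comr. 3LHet averaged -0.16 ± 0.03 and -0.13 ± 0.03 (52 bins), and 2LHet -0.27 ± 0.03 and -0.19 ± 0.02 (8 bins). XHet, with 140 windows in 5 bins, averaged -0.08 ± 0.12 and -0.04 ± 0.15. On 3R the order of the mutants turned between the border and the heterochromatin. The score of comr was lower in the 600 kb next to the centromere and higher by 0.13 ± 0.02 in 3RHet. A higher score in comr was not particular to 3RHet. The difference was 0.07 ± 0.02 in 2LHet, and 0.03 ± 0.02 in 3LHet and 0.03 ± 0.06 in XHet, both within 2 standard errors of 0. The first Mb of 2R, which the position rule left out, was lower than any of the 4 segments, with -0.32 ± 0.03 in can and -0.30 ± 0.05 in comr.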

How the data were processed

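H3K27me3 ChIP-seq of can and comr mutant testes was used as deposited. Per the file headers, the authors divided H3K27me3 by input in bins of 1000 bp and applied a step abbreviated QN; the deposited score lies on both sides of 0, and the sources used here do not give its log base. Per the submitters' processing notes, coordinates refer to dm3. Aligner, read filters, depth and how replicates were combined are not stated there. Both profiles held 1263776 rows, 100 bp apart, at the same positions, and sorted scores of both were equal in every row. Of these, the rows whose start lay 500 bp past a whole kb were used, and bins of 50 kb were counted from position 0 of each arm. Named bins were, on each arm, the one nearest the centromere, the highest and lowest by the mean of both profiles, and those with the largest difference in each direction, with at least 20 windows except for the first. Bins and stretches cited beyond these, and the fine bins of 3R, were chosen after their values were seen. The members and lists were chosen with earlier results of these data known. No gene annotation or genome of this build was used, so regions carry neither gene names nor sequences. Slopes, splits and domain calls were tested on simulated arms. Those had independent windows and none missing, unlike the deposited profiles. Python 3.11.15 with numpy 2.4.6, pandas 2.3.3, scipy 1.17.1 and matplotlib 3.10.9 was used.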

Additional observations from a re-analysis of the deposited data

How the results depend on the processing

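The alternatives used other rows, medians, other bin sizes, a minimum of 20 windows per bin, shifted segment starts, weighted slopes, centring on the rest of the arm, and other thresholds; those for the 600 kb of 3R, for 3R without its raised bins and for agreement in fuller bins came later, with the values known. No paired analysis was possible because each deposited profile already merges both replicates, and for the same reason no replicate could be left out. No mean, slope or difference between the mutants that exceeded 2 of its errors changed sign. Ratios of shares cannot change sign. With thresholds within each arm, top windows on X turned from an excess to a shortfall in both mutants. Of 245 recomputed values, 214 stayed within their error or tolerance and 31 moved. The 3R split stayed at 0.6 Mb in both profiles under each of its alternatives, none of which shifted the limit of the border. The 600 kb of 3R next to the centromere stayed lower in comr, by -0.11 to -0.14. The 2L mean moved to -0.12 in can and -0.11 in comr with a start 200 kb farther out, and the 3L mean in can to -0.09 as a median. Slopes per 100 kb moved to 0.0104 on X in can with 25 kb bins, and with 100 kb bins to -0.0377 on X in comr, -0.0165 on 2L in can and -0.0175 on 2L in comr; weighting by windows gave -0.02 (-0.01999) on 2L in can. The variance taken by a split moved with bin size: with 25 kb bins it was 6.66% on 3L in can, 5.84% on 3L in comr, 43.2% on 3R in can and 52.1% on 3R in comr. With 100 kb bins it was 18.1% on 2L in comr, 34.1% on 3L in can, 84.2% on 3R in can and 84.5% on 3R in comr, and with at least 20 windows 8.42% on X in comr. Bins higher and lower in comr by at least 0.1 numbered 40 and 51 at 25 kb, and 5 and 11 at 100 kb, as their number changes with size. As a ratio to the share over the 6 main sequences, top windows on X moved from 1.55 to 1.85 at 5% and 1.23 at 20% in can, and to 1.75 at 5% in comr. Bottom windows on X in comr went from 1.12 to 1.38 at 5%, and autosomal bottom windows in comr from 1.53 to 1.39 at 20%. With thresholds within each arm, where X is compared with X, top windows on X came to 0.812 in can and 0.911 in comr, bottom windows on X to 0.976 and 0.861, and autosomal top windows in can to 0.762 from 0.596. The cause of these moves was not tested. Each value is limited by unknown depth, missing windows and merged replicates.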

Other observations

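Beyond the border, the lower score of comr on 3R went on into the arm. In the next 600 kb, up to 1599999, 11 of 12 bins were lower in comr, and the means were -0.02 ± 0.02 for can and -0.18 ± 0.02 for comr over 586 windows. This stretch was chosen after its values were seen, and the raised bins between it and the step, which begin at 650000, were higher in comr. On 2L the low stretch that ends at 21749999 held the lowest comr bin of the border and the Mb beside it, from 21600000, with -0.39 ± 0.08 in can and -0.66 ± 0.08 in comr.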
